A study of Mus musculus with 24 samples.

Results

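Colonic CD4 T cells that carry the Nmur1 reporter were compared between mice given the neuropeptide neuromedin U (NMU) and mice given phosphate-buffered saline (PBS). The comparison used 8 of the 24 libraries of the series: all those labelled NMUR1+ CD4, from 4 NMU mice (mice 1 to 4) and 4 PBS mice (mice 5 to 8). The other 16 libraries hold NMUR1- CD4 T cells and group 2 innate lymphoid cells (ILC2) of the same 8 mice. Every mouse carried the Nmur1iCre-eGFP reporter allele, drank 3% dextran sulfate sodium (DSS), which injures the colon lining, for 5 days, and then drank water for 3 days. NMU or PBS was injected intraperitoneally every other day, so the PBS mice share the colitis and recovery and no uninjured group was compared. CD4 T cells were sorted as CD45+ CD3+ CD5+ CD4+ cells with or without eGFP. The labels hold 4 mice per treatment, whereas the design text gives 3.

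NMU is a neuropeptide made by enteric neurons, and its receptor NMUR1 couples to the G protein Gq, which raises intracellular calcium. In the gut NMUR1 is best known on ILC2, where NMU induces type 2 cytokines such as IL-5 and IL-13. The colon lamina propria also holds regulatory T cells (Treg), which are defined by the transcription factor FOXP3 and restrain inflammation. Its plasma cells make mostly IgA, joined into dimers by the J chain, and a plasma cell devotes a large share of its RNA to immunoglobulin.

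The NMUR1+ libraries held 9759943 to 17379633 counts each and counts for 13154 to 15664 genes. Nmur1 was checked first, in CPM, counts scaled to library size, here over all 24 libraries. The NMUR1+ libraries of NMU mice 1 to 4 had 6.14, 45.8, 75.3 and 38.1 CPM of Nmur1, and those of PBS mice 5 to 8 had 15.4, 56.9, 65.1 and 27.0 CPM. The NMUR1- libraries had 7.19, 1.85, 1.60 and 7.84 CPM in mice 1 to 4 and 6.94, 3.44, 3.56 and 2.51 CPM in mice 5 to 8. Nmur1 was thus higher in the NMUR1+ library in 7 of 8 mice, and the library labelled NMUR1+ of mouse 1 went against its label. Results are therefore also given without that library. Cd3e, a T cell receptor subunit, was at 698 to 1034 CPM in the NMUR1+ libraries and Cd4 at 468 to 857 CPM, so the T cell label fits its markers. Foxp3 was higher in the NMUR1+ than in the NMUR1- library in 8 of 8 mice. Cd3e was higher in the NMUR1+ library in only 3 of 8 mice, Cd4 in 2 and Trac, another T cell receptor gene, in 2.

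The NMUR1+ libraries differed widely in plasma cell RNA. Immunoglobulin genes and Jchain together took 30.4%, 0.784%, 12.4% and 29.6% of all counts in NMU mice 1 to 4, and 26.7%, 2.29%, 21.3% and 14.8% in PBS mice 5 to 8. Each treatment thus held libraries rich and poor in plasma cell RNA, and the groups overlapped almost entirely. The counting error is small beside this spread, with a 95% Wilson interval of 30.3% to 30.4% in mouse 1 and 0.779% to 0.789% in mouse 2; these intervals cover counting error only. The share averaged 18.3% ± 14.3 in NMU mice and 16.3% ± 10.5 in PBS mice (SD, n = 4 each). On the log2 scale the NMU minus PBS difference was -0.29 (exact permutation test, two-sided, p = 0.80, where 4 against 4 allows no p below 0.0286). In bulk libraries such as these, fewer cells of a type and less RNA per cell cannot be told apart.

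The immunoglobulin RNA was of the mucosal kind. Igha, the IgA heavy chain constant gene, made up 21.3% to 34.1% of the immunoglobulin counts and Igkc, the kappa light chain constant gene, 19.5% to 25.9%. Ighm, which encodes the IgM heavy chain, made up 0.150% to 6.66%. The share was higher in the NMUR1+ library than in the NMUR1- library of the same mouse in 8 of 8 mice, with a ratio of 2.60 to 101. In the NMUR1- libraries it was 2.83%, 0.301%, 0.450% and 5.58% in mice 1 to 4 and 3.95%, 0.446%, 0.378% and 0.146% in mice 5 to 8.

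**Figure D1:**
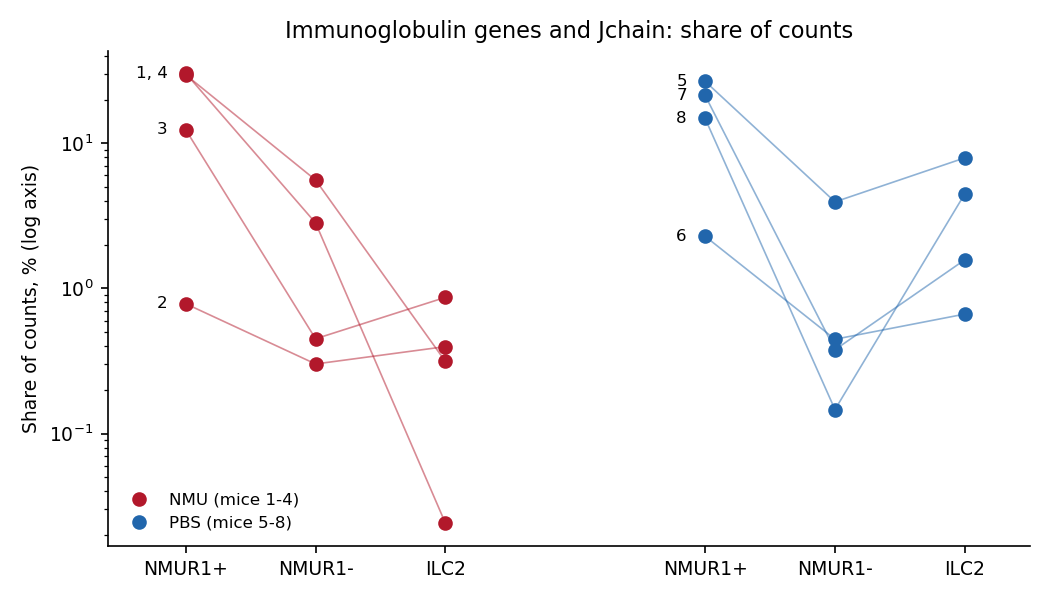
Share of counts in immunoglobulin genes and Jchain (percent, log axis) in each library, NMU mice on the left and PBS mice on the right, with lines joining the populations of one mouse. NMUR1+ libraries lie between 0.784% and 30.4%, and each lies above the NMUR1- library of its mouse.

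Genes that moved with plasma cell RNA across the NMUR1+ libraries were found with an edgeR quasi-likelihood test. It fitted the slope of each gene on log2 plasma RNA (immunoglobulin and Jchain counts relative to all other counts) with treatment in the model, and it left immunoglobulin genes and Jchain out. Of 11809 genes tested, 38 rose with plasma RNA (0.322%) and 2 fell (0.0169%) at a Benjamini-Hochberg adjusted p under 0.05. The rising genes included 14 of 33 genes of a plasma cell list and all 5 tested plasma-defining genes, Mzb1, Sdc1, Tnfrsf17, Derl3 and Xbp1. In the T cell receptor list 0 of 31 genes passed in either direction, in the type 2 list 0 of 31, and in the Treg list 1 of 31, Swap70, which rose. At an unadjusted p under 0.05, 479 genes rose (4.06%) and 314 fell (2.66%). By that measure 25 of 33 plasma cell genes rose, and of 31 T cell receptor genes 8 fell and 0 rose. Of 31 Treg genes 7 rose and 7 fell, and of 31 type 2 genes 5 rose and 3 fell. Without mouse 2, the library poorest in plasma RNA, 1 gene passed; without mouse 1, 22 did. Without mice 4, 5 and 6 in turn the counts were 5, 15 and 6. The 40 genes kept their direction under every alternative that was run.

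Mzb1, an endoplasmic reticulum chaperone of antibody-making cells, was at 569.9, 20.5, 294 and 660.0 CPM in NMU mice 1 to 4 and at 569.8, 41.6, 371 and 385 CPM in PBS mice 5 to 8. Unless another scale is named, these and all later CPM values are scaled over the 8 NMUR1+ libraries. Mice 2 and 6 were low in both treatments, and the groups overlapped. Its log2 level rose by 0.88 for each log2 unit of plasma RNA (SE 0.055, edgeR adjusted p = 0.000139). The slope was 0.80 (SE 0.069, adjusted p = 0.00206) for Sdc1, which encodes the plasma cell surface proteoglycan CD138, and 0.87 (SE 0.097, adjusted p = 0.00879) for Tnfrsf17, the survival receptor BCMA. Tcf4, a transcription factor of the B lineage, and Cd79a, a B cell receptor subunit, had slopes of 0.48 (SE 0.046) and 0.44 (SE 0.045). Xbp1, the transcription factor that drives secretory capacity in plasma cells, had a slope of 0.26 (SE 0.036, adjusted p = 0.0171). It stood at 2714, 892, 1312 and 2183 CPM in NMU mice and 2100.0, 940.2, 1746 and 1536 CPM in PBS mice.

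Creld2, Edem1, Edem2, Txndc5, Herpud1, Ero1b and Lman1, which serve protein folding, quality control or export in the endoplasmic reticulum, were also among the 38. Pdcd1, which encodes the inhibitory T cell receptor PD-1, also rose, with a slope of 0.29 (SE 0.038, adjusted p = 0.0154). Pdcd1 was at 411, 141, 337 and 512 CPM in NMU mice and 474, 203, 319 and 284 CPM in PBS mice, lowest in the same 2 mice as Mzb1. The genes that fell were F2rl2, which encodes a thrombin receptor family member, with a slope of -0.35 (SE 0.053, adjusted p = 0.0216), and Ltb4r1, a leukotriene B4 receptor, with -0.19 (SE 0.033, adjusted p = 0.0476). F2rl2 had 21.2, 60.03, 29.7 and 13.8 CPM in NMU mice and 17.9, 66.7, 23.1 and 26.7 CPM in PBS mice, highest in mice 2 and 6.

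**Figure D2:**
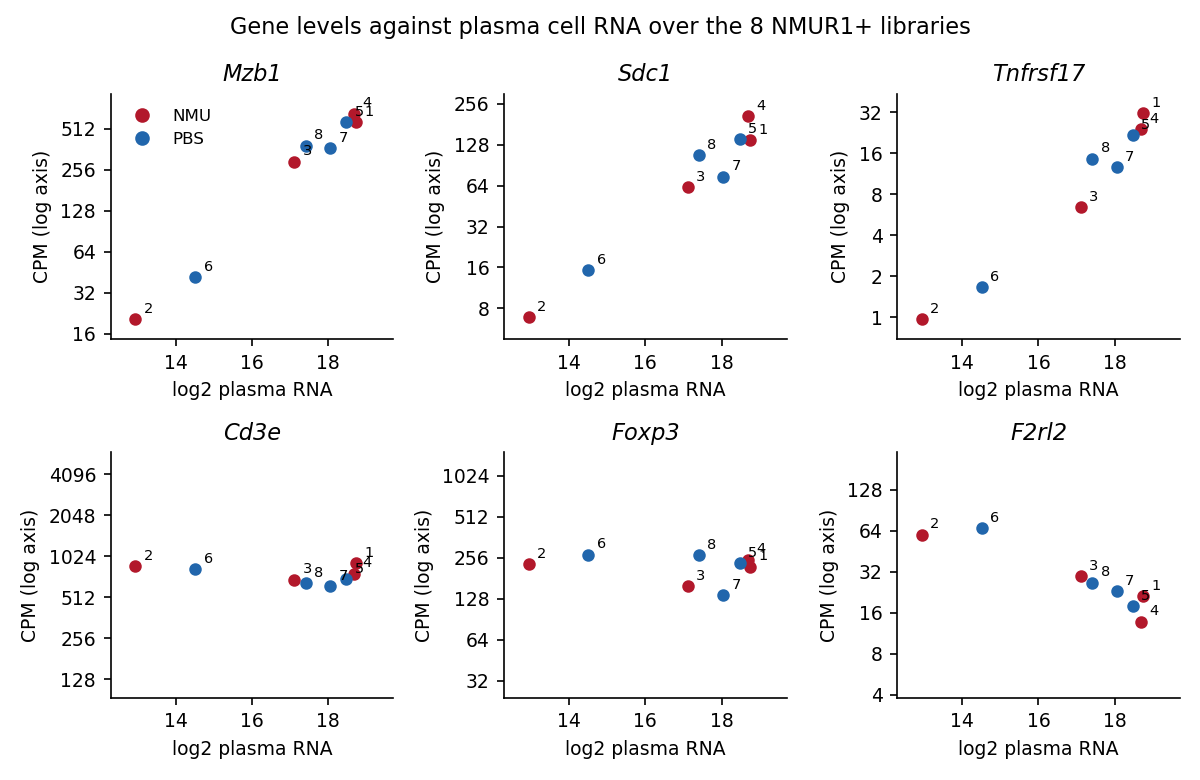
Level of 6 genes (CPM) against log2 plasma RNA in the 8 NMUR1+ libraries, with NMU and PBS libraries marked. Mzb1, Sdc1 and Tnfrsf17 climb with plasma RNA, F2rl2 declines, and Cd3e and Foxp3, with slopes of -0.034 and -0.032, stay nearly level.

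XBP1 acts through promoter elements of endoplasmic reticulum genes, and the promoters of the 38 rising genes were therefore searched for the endoplasmic reticulum stress element, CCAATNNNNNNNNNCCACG, on both strands of the 250 bases before the start site. RefSeq (GRCm38.p6) promoters were matched for 30 of the 38. The element was found in 3 of these 30 genes, which have 41 promoters, and in 37 of all 32851 promoters (0.113%). Among 11855 promoters of the genes tested between NMU and PBS the share was 0.127%. The 3 sequences are printed 5′ to 3′ on the gene's strand with the element in capitals, which in each case lies in reverse orientation. Creld2 is at chr15:88819396-88819645, Derl3 at chr10:75893148-75893397 and Ero1b at chr13:12565633-12565882, all on the plus strand.
Creld2: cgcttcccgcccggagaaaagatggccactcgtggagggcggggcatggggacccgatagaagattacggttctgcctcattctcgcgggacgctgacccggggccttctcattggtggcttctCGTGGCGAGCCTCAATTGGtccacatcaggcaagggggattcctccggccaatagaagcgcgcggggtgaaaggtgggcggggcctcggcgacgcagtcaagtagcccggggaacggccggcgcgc
Derl3: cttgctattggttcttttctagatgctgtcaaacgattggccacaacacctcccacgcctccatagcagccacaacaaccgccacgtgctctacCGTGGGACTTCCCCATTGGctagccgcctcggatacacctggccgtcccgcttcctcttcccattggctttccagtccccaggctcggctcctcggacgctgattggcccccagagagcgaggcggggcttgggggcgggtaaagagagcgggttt
Ero1b: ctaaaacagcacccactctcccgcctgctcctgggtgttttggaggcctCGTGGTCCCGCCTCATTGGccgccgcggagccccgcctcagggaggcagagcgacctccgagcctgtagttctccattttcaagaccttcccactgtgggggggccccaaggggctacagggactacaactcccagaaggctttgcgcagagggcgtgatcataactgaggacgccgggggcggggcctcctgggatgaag
The match describes these letters only. The related element TGACGTGG was in the promoters of 2 of the 30 matched genes, Enpp1 and Txndc5 (0.563% of all promoters), and the octamer ATGCAAAT of immunoglobulin promoters in 1, Vpreb3 (1.60% of all promoters). Among promoters of tested genes these shares were 0.675% and 1.27%.

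No gene passed the test between NMU and PBS in NMUR1+ CD4 T cells. Of 12061 genes tested with edgeR's quasi-likelihood test, 0 had a Benjamini-Hochberg adjusted p under 0.05 (0%). At an unadjusted p under 0.05, 307 genes passed (2.55%), 148 higher (1.23%) and 159 lower (1.32%) in NMU mice. The 4 NMU libraries all lay above the 4 PBS libraries for 1.03% of the genes and all below for 0.821%, together 223 genes (1.85%). DESeq2 called 2 genes and limma voom 0, and without the library of mouse 1 edgeR again called 0. The genes called by DESeq2 were Mfap5, a microfibril gene of fibroblasts (log2 fold change -5.81, adjusted p = 0.000575), and Agr2, a goblet cell gene (-5.39, adjusted p = 0.0198).

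The 5 genes with the smallest edgeR p, chosen with predicted genes, clone names, pseudogenes and immunoglobulin and T cell receptor segments left out, were all lower in NMU mice, at an adjusted p of 1 each. Mfap5 had 0, 0.129, 0 and 0.324 CPM in NMU mice and 1.74, 16.6, 3.90 and 3.73 CPM in PBS mice. Agr2 had 0.878, 0.322, 0.388 and 0.649 CPM in NMU mice and 2.05, 57.0, 32.4 and 1.27 CPM in PBS mice. Neither gene's groups overlapped, and the PBS libraries themselves differed many-fold. Adh1, an alcohol dehydrogenase, averaged 3.55 ± 2.15 CPM in NMU mice and 17.2 ± 7.88 CPM in PBS mice. Fbxl4, a mitochondrial quality control gene, averaged 3.81 ± 1.41 and 11.7 ± 2.57 CPM in NMU and PBS mice, and Rasgrp3, an activator of Ras, 5.57 ± 3.08 and 19.5 ± 8.22 CPM (SD, n = 4 each).

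What these 8 libraries can bound depends on the level of a gene. An interval was counted as within 2-fold when both ends of the 95% interval of the log2 difference, NMU over PBS, lay between -1 and 1. Among 6104 genes with a mean of at least 20 CPM, called well expressed here, 5376 were within 2-fold (88.1%) and 3069 within 1.5-fold (50.3%), and the median half-width was 0.44. At 5 to 20 CPM only 34.6% of genes were within 2-fold and at 1 to 5 CPM 0.210%. Without mouse 1, 5186 of the 6104 were within 2-fold, and 5121 were when the fit took in all 24 libraries and the populations shared 1 estimate of spread. Scaled over all 24 libraries, the ILC2 libraries in that fit had 0 to 12.2 CPM of Cd3e, 0 to 13.4 of Cd4 and 0 to 0.917 of Foxp3. Its intervals for T cell genes therefore do not rest on T cells alone.

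The T cell receptor genes had narrower limits than the Treg and type 2 genes. All 31 genes of the T cell receptor and signaling list were well expressed, 0 were called, 30 were within 2-fold and 20 within 1.5-fold. Their median log2 difference was 0.14, against 0.021 over all well-expressed genes, and their median half-width 0.37. Without mouse 1, 28 were within 2-fold, and 24 were in a fit of all 24 libraries.

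Cd3e had 909, 872, 689.9 and 765 CPM in NMU mice and 694, 830.0, 616 and 653 CPM in PBS mice. The groups overlapped, with mice 1 and 2 highest and mouse 7 lowest. The log2 difference was 0.21 (95% interval -0.080 to 0.50), so a fold of 0.946 to 1.42. In the fit of all 24 libraries, whose spread takes in ILC2, the interval was -1.01 to 1.43 on the log2 scale. Trac, the T cell receptor alpha constant gene, had 1380.0, 1362, 965 and 1004 CPM in NMU mice and 1191, 1398, 1025 and 930.4 CPM in PBS mice. Those groups overlapped fully, and the log2 difference was 0.052 (-0.31 to 0.41). Cd4, the coreceptor for MHC class II, averaged 552 ± 93.1 CPM in NMU mice and 545 ± 153 CPM in PBS mice (SD, n = 4 each), a log2 difference of 0.018 (-0.42 to 0.46; -1.43 to 1.46 in the fit of all 24 libraries).

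The narrowest intervals on this list included Ptpn22, a phosphatase that damps receptor signaling, at 0.14 (-0.14 to 0.42), and Lcp2, the adaptor SLP-76, at 0.16 (-0.13 to 0.46). Lck, the kinase that starts receptor signaling, was at 0.14 (-0.18 to 0.46). The costimulatory receptors Cd28 and Icos were at 0.18 (-0.22 to 0.58) and 0.066 (-0.30 to 0.43). The widest were Tcf7, a transcription factor of naive and memory T cells, at 0.30 (-0.52 to 1.12), Themis, a regulator of receptor signaling, at -0.12 (-0.94 to 0.70), and Prkcq, protein kinase C theta, at 0.15 (-0.57 to 0.87). Of the 31 genes, Tcf7 alone was not bounded within 2-fold.

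**Figure D3:**
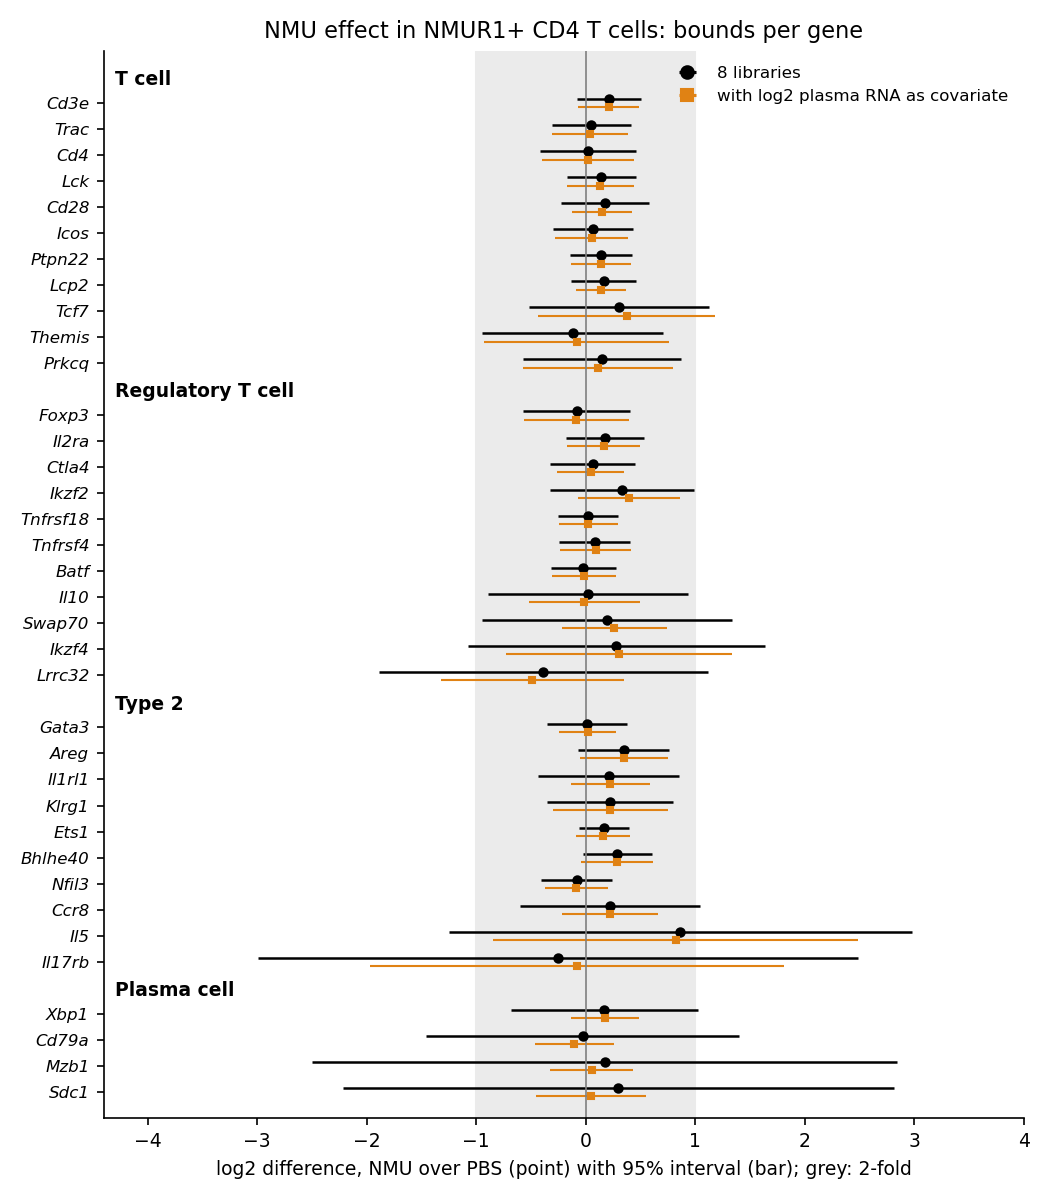
Log2 difference, NMU over PBS, with its 95% interval for named T cell receptor, Treg, type 2 and plasma cell genes, from all 8 NMUR1+ libraries (black) and with plasma RNA as a covariate and immunoglobulin genes left out (orange squares). The grey band marks 2-fold, and Cd3e, Trac, Foxp3, Ctla4 and Gata3 lie inside it while Il5 and Il17rb extend beyond it on both sides with all 8 libraries.

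No Treg gene passed the test, and the limits were wider. Of 32 genes on the list 31 were tested, 28 were well expressed, 0 were called, 20 were within 2-fold and 11 within 1.5-fold. The median log2 difference of the 28 was 0.072 and the median half-width 0.53. Without mouse 1, 21 were within 2-fold, and 15 were in the fit of all 24 libraries.

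Foxp3 had 220.1, 230.2, 157.7 and 248 CPM in NMU mice and 235, 270.0, 136 and 266 CPM in PBS mice. The groups overlapped, with 1 lower library in each. The log2 difference was -0.083 (95% interval -0.57 to 0.41), a fold of 0.673 to 1.32. In the fit of all 24 libraries, whose spread takes in ILC2, the interval was -1.16 to 0.99 on the log2 scale. Il2ra, the high-affinity IL-2 receptor chain, averaged 679 ± 147 CPM in NMU mice and 601 ± 61.8 CPM in PBS mice (SD, n = 4 each), a log2 difference of 0.18 (-0.18 to 0.53). Ctla4, an inhibitory receptor, was at 0.063 (-0.32 to 0.45), and Ikzf2, which encodes the Treg factor Helios, at 0.33 (-0.33 to 0.99).

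The narrowest intervals were those of the tumor necrosis factor receptor family members Tnfrsf18, or GITR, at 0.020 (-0.25 to 0.29), and Tnfrsf4, or OX40, at 0.080 (-0.25 to 0.41), and of the transcription factor Batf at -0.021 (-0.32 to 0.28). Il10, the suppressive cytokine, had 344, 603.01, 265 and 246 CPM in NMU mice and 209, 628, 371 and 230.3 CPM in PBS mice. It was highest in mouse 2 of the NMU group and mouse 6 of the PBS group, which had the least plasma RNA. The groups overlapped, with a log2 difference of 0.020 (-0.89 to 0.93). The slope of Il10 on plasma RNA was -0.23 (SE 0.054, edgeR adjusted p = 0.18). The widest intervals were Lrrc32, the TGF-beta docking protein GARP, at -0.39 (-1.89 to 1.12), Ikzf4, the factor Eos, at 0.28 (-1.08 to 1.63), and Swap70 at 0.19 (-0.95 to 1.33).

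**Figure D4:**
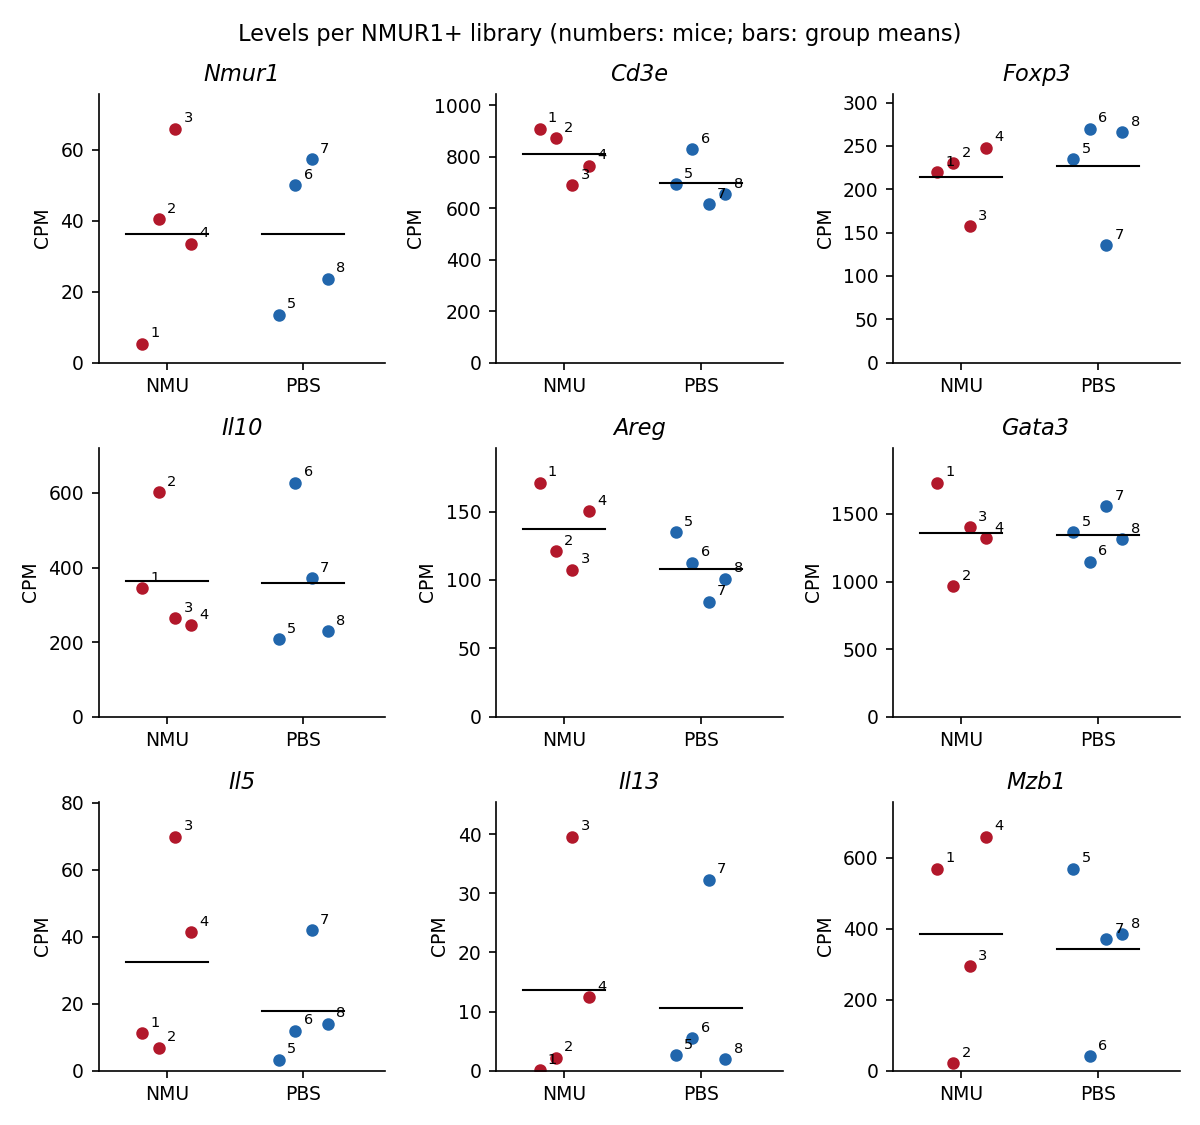
Level of 9 genes (CPM) in each NMUR1+ library, NMU mice on the left and PBS mice on the right, with bars at the group means. The groups overlap for each gene; Nmur1, Il5 and Il13 spread widely within a treatment, and Cd3e and Gata3 do not.

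Type 2 genes ranged from well bounded to hardly bounded, and among the well-expressed ones Il17rb and Il5 had the widest intervals. Of 35 genes on the list 31 were tested, 23 were well expressed, 0 were called, 17 were within 2-fold and 7 within 1.5-fold. The median log2 difference of the 23 was 0.011 and the median half-width 0.56. Without mouse 1, 18 were within 2-fold, and 16 were in the fit of all 24 libraries. With all 8 libraries Il5, Il17rb, Maf, Il4ra, Stat6 and Ccr8 failed the 2-fold limit, and of these Maf and Ccr8 are on both the Treg and the type 2 list.

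Gata3, the transcription factor of type 2 and of some regulatory T cells, had 1732, 969, 1400.1 and 1322 CPM in NMU mice and 1364, 1147, 1557 and 1314 CPM in PBS mice. The groups overlapped, and the log2 difference was 0.011 (95% interval -0.35 to 0.38), a fold of 0.783 to 1.30. Areg, the tissue-repair ligand amphiregulin, had 171, 121, 108 and 150.1 CPM in NMU mice and 135, 113, 84.0 and 101 CPM in PBS mice. The groups overlapped, and the log2 difference was 0.35 (-0.067 to 0.76; unadjusted p = 0.092, adjusted p = 1 in edgeR), which bounds a rise at 1.69-fold in this fit. When all 24 libraries shared 1 estimate of spread, the interval was -0.68 to 1.37.

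Il1rl1, the IL-33 receptor ST2, was at 0.21 (-0.43 to 0.85), and Klrg1, an inhibitory receptor of effector cells, at 0.22 (-0.35 to 0.80). The narrowest intervals were those of the transcription factors Ets1 at 0.17 (-0.063 to 0.40), Bhlhe40 at 0.29 (-0.029 to 0.60) and Nfil3 at -0.082 (-0.41 to 0.24). Ccr8, a chemokine receptor, was at 0.22 (-0.60 to 1.05).

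Il5, which encodes the eosinophil growth factor IL-5, had 11.3, 6.88, 69.9 and 41.5 CPM in NMU mice and 3.28, 12.002, 41.9 and 14.1 CPM in PBS mice. The log2 difference was 0.86 (95% interval -1.25 to 2.98), an interval that runs from 0.420-fold to 7.90-fold. Il13, which drives mucus production, had 0.125, 2.19, 39.6 and 12.5 CPM in NMU mice and 2.67, 5.55, 32.3 and 1.95 CPM in PBS mice, a log2 difference of 0.36 (-2.98 to 3.71). Il17rb, a receptor chain for IL-25, had 6.40, 6.43, 98.1 and 34.8 CPM in NMU mice and 13.3, 14.1, 114 and 32.8 CPM in PBS mice, a log2 difference of -0.25 (-2.99 to 2.48). All 3 genes, Il4 and Nmur1 itself had their 2 highest libraries in mouse 3, given NMU, and mouse 7, given PBS. The highest library exceeded the lowest 21.3-fold for Il5 and 316-fold for Il13, and the treatments overlapped for each. These estimates rest on mice 3 and 7: Il5 was at 0.16 without mouse 3 and 1.72 without mouse 7, and Il13 at -1.09 and 1.99. Il17rb was at -1.45 without mouse 3 and 0.86 without mouse 7, so Il13 and Il17rb each changed sign.

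Il4, the cytokine that switches B cells to IgE, averaged 1.77 ± 2.70 CPM in NMU mice and 3.03 ± 3.69 CPM in PBS mice (SD, n = 4 each), a log2 difference of -0.76 (-3.32 to 1.81) that was -2.80 without mouse 3 and 0.52 without mouse 7. Csf2, which encodes GM-CSF, had 19 counts over the NMU libraries and 4 over the PBS libraries, too few to be tested, as were Il9, Il3 and Ptgdr2. Nmur1 had 5.40, 40.3, 65.9 and 33.6 CPM in NMU mice and 13.5, 50.02, 57.4 and 23.7 CPM in PBS mice. Its groups overlapped fully, with a log2 difference of 0.0083 (-1.58 to 1.60), and the data leave a change of up to 3.03-fold within the interval.

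Other programs of the T cell were likewise without a called gene. In the Gq and calcium signaling list, which holds the pathway below NMUR1, 30 of 31 genes were tested and 22 of 23 well-expressed genes were within 2-fold, the exception being Nmur1. Of the immediate early and activation genes, 16 of 21 well-expressed members were within 2-fold with a median log2 difference of -0.13, and of the proliferation genes 19 of 20 with a median of 0.073. Of the Th1 and Th17 genes 9 of 15 were within 2-fold, with Ifng, Il17a and Il17f among those that were not, and of the naive and memory genes 9 of 13.

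Across these lists 3 of 108 tested genes had an unadjusted p under 0.05 (2.78%), near the 2.55% of all genes. They are named after their values were seen. Il18r1, the IL-18 receptor, had 47.3, 63.2, 51.4 and 45.4 CPM in NMU mice and 45.5, 27.6, 35.5 and 23.9 CPM in PBS mice. Its log2 difference was 0.65 (95% interval 0.16 to 1.14, edgeR adjusted p = 1). Nfatc3, a calcium-activated transcription factor, was at 0.34 (0.046 to 0.63) with groups that did not overlap, as for 1.85% of all genes, and Myc, a growth regulator, was at -0.40 (-0.78 to -0.0094).

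Markers of other cells were present. Summed plasma-defining genes, 94.0% of them Jchain, ranged from 1844 to 87436 CPM in NMU mice and from 3857 to 59712 CPM in PBS mice. The part of the cells other than plasma cells in the results was not tested. Summed B cell genes ranged from 12298 to 20191 CPM in NMU mice and from 8787 to 21577 CPM in PBS mice, with Cd74 giving 54.6% of that sum. Macrophage and dendritic cell genes summed to 2415 to 4418 CPM in NMU mice and 1905 to 4936 CPM in PBS mice. Fibroblast genes summed to 276 to 573 CPM in NMU mice and 408 to 927 CPM in PBS mice, with Thy1, which T cells also express, giving 41.5%, and epithelial genes to 21.4 to 70.6 CPM in NMU mice and 37.9 to 277 CPM in PBS mice. NK and cytotoxic genes summed to 1109 to 2725 CPM in NMU mice and 983 to 2518 CPM in PBS mice, with Gzmb giving 73.7% of the sum and Ncr1, 1 of 13 genes, at 0 in all 8 libraries. Neutrophil and mast cell genes summed to 21.6 to 59.99 CPM in NMU mice and 19.1 to 42.7 CPM in PBS mice, with 4 of 14 genes at 0 in all, Elane, Mcpt2, Fcer1a and Ms4a2.

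Of these lists, the B cell, fibroblast and epithelial genes had the lowest medians between treatments. The median log2 difference of tested genes was -0.47 for B cell (17 genes), -1.05 for fibroblast (15) and -1.25 for epithelial (9) genes, against 0.0047 over all 12061 genes, and 0 were called. Well expressed were 8 B cell genes (median -0.18), 4 fibroblast genes (-0.64) and 1 epithelial gene (-0.54). In PBS mice 5 to 8, epithelial genes summed to 48.1, 277, 184 and 37.9 CPM and fibroblast genes to 481, 927, 472 and 408 CPM. Only mice 6 and 7 lay above the NMU range for epithelial genes, and only mouse 6 for fibroblast genes. In the B cell list 3 of 17 genes, Ms4a1, Cr2 and Fcmr, named after their values were seen, had an unadjusted p under 0.05 and were lower in NMU mice, where 1.32% of all genes were. Ms4a1, which encodes CD20, had 22.5, 16.7, 26.5 and 22.0 CPM in NMU mice and 20.8, 30.0, 53.7 and 44.1 CPM in PBS mice, a log2 difference of -0.76 (-1.41 to -0.12, edgeR adjusted p = 1). The groups overlapped through mouse 5.

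Plasma cell genes themselves had wide limits. Of 34 genes on the plasma cell list, 29 were well expressed and 17 of these were within 2-fold, with a median log2 difference of 0.12 and a median half-width of 0.82. Jchain had 83935, 919, 19387 and 56088 CPM in NMU mice and 56815, 2855, 30967 and 23686 CPM in PBS mice, a log2 difference of 0.49 (-2.72 to 3.69). Igha was at 0.20 (-2.91 to 3.32) and Igkc at 0.36 (-2.56 to 3.28). Each treatment had 1 library far below the rest, mouse 2 for NMU and mouse 6 for PBS.

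A fit with log2 plasma RNA as a covariate, which also left immunoglobulin genes out, called 0 genes and narrowed several of the limits. Over the 5963 well-expressed genes in both fits, 5465 were within 2-fold with the covariate and 5375 without it. For 28 plasma cell genes the count was 27 with the covariate and 17 without, and their median half-width 0.38 and 0.79. The Treg list had 26 of 28 genes within 2-fold with the covariate and 20 without, gaining Lag3, Itgae, Ccr8, Maf, Swap70 and Socs2. The type 2 list had 20 of 23 with and 17 without, gaining Maf, Stat6 and Ccr8, and the T cell receptor list 29 of 31 with and 30 without, losing Sh2d1a. Between the fits, no log2 difference of a well-expressed T cell receptor gene moved by more than 0.069. The largest move was 0.10 in the Treg list and 0.17 in the type 2 list. With the covariate the estimate of Foxp3 was -0.085, that of Gata3 0.019 and that of Il5 0.82 (-0.85 to 2.49).

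Plasma RNA also sets the scale on which T cell genes are read. As a share of all counts, Cd3e was 1.70-fold higher in its highest than in its lowest NMUR1+ library. As a share of counts other than immunoglobulin it was 1.41-fold higher, and on the scaled CPM used here 1.48-fold.

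The effect of NMU in NMUR1+ cells was set against that in NMUR1- cells of the same mice in an edgeR fit of all 24 libraries. Of 13509 genes tested, 0 differed between the populations at an adjusted p under 0.05 (0%), 157 did at an unadjusted p under 0.05, and DESeq2 called 4, Cdkl4, Ccdc40, Arhgef17 and Glp2r. With mouse as a block, which pairs the populations of one animal, 1 gene passed, the immunoglobulin segment Igkv14-130. The interval of the difference in effect was within 2-fold for 4256 of 6104 well-expressed genes (69.7%). It was so for 17 of 31 T cell receptor genes, 11 of 28 Treg genes and 11 of 23 type 2 genes. In this fit a difference in effect larger than 2-fold could not be bounded for the rest. Its spread for each gene also takes in the ILC2 libraries, where Cd3e was at 0 to 12.2 CPM on the scale of all 24 libraries. A fit of the CD4 libraries alone was not run.

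The NMUR1+ libraries were noisier than the NMUR1- libraries. The biological coefficient of variation of the fit was 0.507 in NMUR1+, 0.333 in NMUR1- and 0.648 in ILC2 libraries. Over 5908 genes well expressed in NMUR1+ cells and tested in all 3 populations, 90.6% were bounded within 2-fold in NMUR1+, 92.8% in NMUR1- and 63.8% in ILC2.

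The genes that pass the NMU test in ILC2 were also followed in NMUR1+ T cells. Of 74 such genes, 60 were well expressed in NMUR1+ cells; 0 were called there and 54 were bounded within 2-fold (90%), a share near the 88.1% of all well-expressed genes. The median absolute log2 difference of the 60 was 0.16 in NMUR1+ cells, against 0.13 over 6012 well-expressed genes. In ILC2, where the test had chosen them, it was 1.05. The direction was the same in both populations for 50 of the 60, against 3483 of 6012 well-expressed genes (57.9%), and for 43 to 52 of the 60 when each mouse was left out in turn. The same mice gave both populations, so these directions are not independent, and no test was made of them. The 6 genes not bounded within 2-fold were Pcsk1, Ly6c2, Hes1, Cd96, Epcam and Junb. Hes1, a transcriptional target of Notch, was at -0.63 (-1.23 to -0.037), and Cd96, an adhesion receptor, at 0.50 (-0.15 to 1.16).

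**Figure D5:**
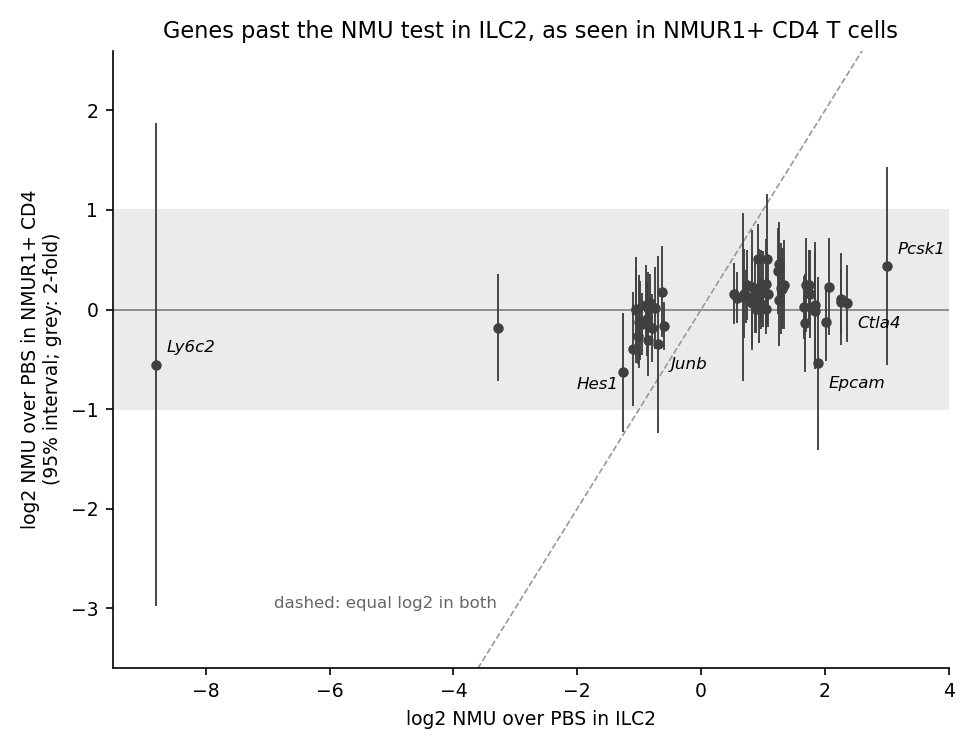
Log2 difference, NMU over PBS, of the 60 genes in NMUR1+ CD4 T cells with its 95% interval (vertical axis) against that in ILC2 (horizontal axis), with a dashed line of equal difference and a grey band at 2-fold. The NMUR1+ values have a median absolute log2 difference of 0.16, and those in ILC2 of 1.05.

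The difference in NMU effect, NMUR1+ minus ILC2, passed the test for 98 of 13509 genes (0.725%), 68 higher and 30 lower in NMUR1+ cells, and for 46 with mouse as a block. Of the 68, 43 were at 0 in all ILC2 libraries of NMU mice. ILC2 levels in CPM are given here on the scale of all 24 libraries. Summed plasma-defining genes did not overlap between the ILC2 groups, at 773 to 1683 CPM in NMU mice and 2086 to 17016 CPM in PBS mice. B cell, macrophage and dendritic cell, and fibroblast sums reached higher in some PBS libraries, with overlapping ranges. Epithelial and endothelial sums reached higher in NMU mice, up to 108.6 and 93.9 CPM against 91.5 and 74.1 CPM. The part of other cells in these calls was not tested. In ILC2, immunoglobulin genes and Jchain took 0.0241%, 0.397%, 0.867% and 0.314% of counts in NMU mice 1 to 4 and 7.93%, 0.665%, 1.58% and 4.49% in PBS mice 5 to 8. Macrophage and dendritic cell genes summed to 214 to 852 CPM in NMU mice and 296 to 2521 CPM in PBS mice, and fibroblast genes to 112 to 188 CPM in NMU mice and 98.3 to 753 CPM in PBS mice. The 98 called genes included 1 of the 20 macrophage and dendritic cell genes, Itgax, and 0 of the 15 fibroblast genes. Among Treg genes 3 passed, with a lower effect in NMUR1+ cells for Ctla4 and Tnfrsf4 and a higher one for Entpd1, the ectonucleotidase CD39 (log2 4.72). In ILC2, Entpd1 averaged 1.51 CPM in NMU mice and 37.4 CPM in PBS mice on the scale of all 24 libraries. Among T cell receptor genes 1 passed, the adhesion receptor Cd2 (log2 3.02). Cd2 was low in ILC2, at 0.644 CPM in NMU mice and 5.38 CPM in PBS mice. Among type 2 genes 0 passed. On the scale of all 24 libraries Ctla4 averaged 2046 ± 447 CPM in NMUR1+ cells of NMU mice and 1959 ± 405 CPM in those of PBS mice. In ILC2 it averaged 134 ± 76.3 CPM in NMU mice and 25.8 ± 6.48 CPM in PBS mice (SD, n = 4 each). The difference in effect was -2.31 on the log2 scale (SE 0.37, edgeR adjusted p = 0.00341). Tnfrsf4 averaged 2818 ± 597 and 2665 ± 365 CPM in NMUR1+ cells of NMU and PBS mice, and 72.6 ± 15.8 and 14.98 ± 5.52 CPM in their ILC2, a difference in effect of -2.20 (SE 0.31, adjusted p = 0.000884). For both genes the treatments differed in ILC2 and overlapped in NMUR1+ cells.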

How the data were processed

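RNA-seq was measured in 24 libraries, 4 per group of population and treatment, made with a low-input kit that marks neither strand nor molecule. Reads were aligned to mm10 with STAR 2.5.3, according to the submitters' processing notes; how they were counted, on which annotation and with which strand setting was not given in the sources used here. What the authors deposited is a table of raw counts for 27179 gene IDs, of which 25275 matched a symbol (93.0%). IDs without a symbol held 0.958% of the NMUR1+ counts.

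NMU and PBS were compared over the 8 NMUR1+ libraries with edgeR 4.0.16 (R 4.3.3) on the counts: filterByExpr with a minimum count of 10, TMM scaling, robust quasi-likelihood fit, Benjamini-Hochberg adjustment over all genes tested. The 95% intervals came from that fit. Differences between populations came from a fit of all 24 libraries. Genes in a repeated family, immunoglobulin segments above all, can share reads. Functions were tested on simulated data with less spread between libraries than these data and no differences in plasma RNA. The coverage of the intervals at the spread of these libraries was not tested. Alternatives were RLE scaling, no filter on low counts, DESeq2 1.42.0, limma voom (3.58.1), all 24 libraries, immunoglobulin genes left out, plasma RNA or Jchain as a covariate, the 4 libraries above 20% immunoglobulin left out, and each mouse left out.

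Members, gene lists and tests were chosen with earlier results of these data known. Genes were named by a rule: label, T cell, Treg, type 2 and plasma genes; the 3 narrowest and 3 widest intervals of the T cell, Treg and type 2 lists; the 5 smallest p; up to 5 per direction that move with plasma RNA at 10 CPM or more; and up to 5 per direction for each difference between populations. Predicted genes, clone names, pseudogenes and immunoglobulin and T cell receptor segments were left out where the rule chose genes by their values. Other genes are named as such. Mouse numbers pair the populations of one animal: deviations from the group means correlated at 0.035 to 0.51 between NMUR1+ and NMUR1- libraries of a mouse, above 0.1 in 7 of 8, and at -0.0066 to 0.22 between NMUR1+ and ILC2 libraries. NMU and PBS mice are different animals and are not paired. Replicates differed far beyond counting noise, with a chi-square per degree of freedom of at least 70.6.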

Additional observations from a re-analysis of the deposited data

Results flagged for a closer look

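In the NMUR1+ libraries, 60 named genes in both treatments gave 120 groups of 4, and chance alone marks about 1 in 20 such groups as holding a library far from the others. Library values, in CPM, that stood apart were these. Aldh3b1 was at 28.9 in NMU mouse 3, where the other NMU libraries had 10.04 to 11.6. Il4 was at 5.81 in NMU mouse 3, with the others at 0.251 to 0.567. Tnfrsf18 and Tnfrsf4 were at 1327 and 3264 in NMU mouse 1, with the others at 959.9 to 995 and 2191 to 2229.8. Ctla4 and Nfil3 were at 2253 and 351 in PBS mouse 6, with the others at 1512 to 1602 and 264 to 272. Batf was at 157 in PBS mouse 6, below the 186 to 190.1 of the others, and Mfap5 at 16.6, above 1.74 to 3.90. Il13 was at 32.3 in PBS mouse 7, with the others at 1.95 to 5.55.

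The NMU effect differed between NMUR1+ cells and ILC2 by the edgeR test of the difference itself for 11 named genes, of which 6 (Gpr174, Hsbp1l1, Ndrg1, Nek2, Ltbp4 and Mmp13) did not pass with mouse as a block, at adjusted p from 0.056 to 0.085. Besides Ctla4 (-2.31) and Tnfrsf4 (-2.20), the log2 difference in effect was -3.13 for Ndrg1. The fitted values of -4.97 for Gpr174, -6.23 for Hsbp1l1 and -5.93 for Nek2 rest on 7, 1 and 4 counts in the ILC2 libraries of PBS mice and are imprecise. Aldh3b1, Aoah, Ltbp4, Mmp13 and Snx9 had fitted values of 10.01, 9.65, 9.66, 10.1 and 9.31, with 0 counts in the ILC2 libraries of NMU mice, so these values rest on edgeR's prior count and bound nothing. In NMUR1+ cells Snx9 averaged 64.9 ± 21.3 CPM in NMU mice and 70.2 ± 11.5 CPM in PBS mice on the scale of all 24 libraries (SD, n = 4 each).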

How the results depend on the processing

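The count of 0 genes between NMU and PBS was 2 with DESeq2 and 0 to 1 when each mouse was left out, where the gene without mouse 2 was the immunoglobulin segment Ighv1-52 (log2 7.79, adjusted p = 0.0395). Genes moving with plasma RNA numbered 187 with DESeq2 and 1 to 41 when each mouse was left out. The difference in immunoglobulin share turned to 2.01 percentage points on the percent scale, and the log2 difference ranged from -1.07 to 0.92 when each mouse was left out, positive without mouse 2 or mouse 5. With the replicate block, which pairs populations of one mouse, 1 gene differed in NMU effect from NMUR1- cells and 46 from ILC2. DESeq2 gave 4 and 516 for these comparisons, the absence of a filter gave 54 for ILC2, and leaving out each mouse gave 30 to 106 for ILC2. The causes were not tested. In a fit of all 24 libraries, 5121 of 6104 genes were within 2-fold (T cell receptor 24, Treg 15, type 2 16). The count of genes within 2-fold was 3722 of 6104 (T cell receptor 25, Treg 14, type 2 13) without the 4 libraries above 20% immunoglobulin, which leaves 2 mice per treatment. Of 60 named genes, 22 kept the sign of their difference under all 17 alternatives. With 4 mice per treatment and a coefficient of variation of 0.507, genes under 5 CPM are practically unbounded. The p-values over the 8 NMUR1+ libraries weigh a difference against the spread between mice. Those for differences between populations, except with mouse as a block, treat the libraries of one mouse as independent. The NMUR1+ library of mouse 1 has little Nmur1.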
